A study of Mus musculus with 7 samples.

Results

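Acta2, Pln, Carmn and Ano1 are genes of the contractile programme of mural cells, the smooth muscle cells and pericytes that wrap brain blood vessels. They were chosen by name as 4 of the 297 genes measured by Xenium, which images individual RNA molecules of a chosen gene panel in a tissue section and counts them per segmented cell. The data are 7 fresh-frozen hemisections of wild-type (WT) mouse brain, each 10 µm thick, that pass through the anterior thalamic nuclei, with no treatment and no other genotype in any group. There were 2 anterior sections (bregma -0.58 mm), 2 intermediate sections (bregma -0.7 to -0.82 mm) and 3 posterior sections (bregma -0.94 mm), and the labels give neither the age of the mice nor whether replicates came from separate animals, so p-values measure the spread between sections only. Cells were also chosen by the genes: a co-detecting cell held at least 2 transcripts of any 2 or more of the 4 genes, and 10367 of 384076 cells did so.

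Smooth muscle alpha-actin (Acta2) forms the contractile filaments of smooth muscle. Phospholamban (Pln) restrains the calcium pump of the sarcoplasmic reticulum and so sets how fast calcium is cleared after a contraction. Carmn is a long non-coding RNA of smooth muscle and cardiac cells, and Ano1 is a calcium-activated chloride channel whose opening depolarises smooth muscle and pericytes. In the brain, smooth muscle cells ring arteries and arterioles and pericytes lie on capillaries, while fibroblasts fill the meninges and the space around larger vessels.

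Sections held 17438577 to 23432215 transcripts, with a median of 278 to 390 transcripts per cell. The average control probe, which has no target in mouse, gave at most 0.0632 to 0.145 counts per cell in a section. Between sections, 8 bare cell barcodes recurred, and no full cell name did. Probes of different genes are not equally efficient, so levels are compared between cells and sections and not between genes.

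Acta2 and Pln had the highest mean ratio of observed to expected cells with both genes, so the 250 bases upstream of both transcript starts are shown, from RefSeq (GRCm38.p6), 5′ to 3′ on the strand of the gene. The Acta2 window lies at chr19:34255374-34255623 on the minus strand and the Pln window at chr10:53337436-53337685 on the plus strand, and capitals mark matches to the CArG box that serum response factor binds (CC, 6 letters A or T, GG) with at most 1 letter changed, searched on both strands.
Acta2: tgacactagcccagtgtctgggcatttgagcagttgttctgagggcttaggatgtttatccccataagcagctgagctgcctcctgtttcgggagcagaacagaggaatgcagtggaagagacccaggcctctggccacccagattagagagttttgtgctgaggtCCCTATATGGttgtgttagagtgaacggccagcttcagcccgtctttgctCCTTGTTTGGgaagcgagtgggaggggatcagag
Pln: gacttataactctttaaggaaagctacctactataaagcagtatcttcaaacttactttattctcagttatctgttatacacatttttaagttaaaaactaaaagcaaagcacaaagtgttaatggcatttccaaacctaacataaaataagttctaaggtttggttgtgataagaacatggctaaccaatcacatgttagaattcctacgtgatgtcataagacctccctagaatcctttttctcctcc
The Acta2 window held 2 matches, 84 to 75 and 34 to 25 bases before the start, each with 1 letter changed, and the Pln window held none. The Ano1 window (chr7:144738574-144738823, minus strand) also held none. Of 32851 mouse promoters in the same table, 18.6% held 1 or more such matches and 2.96% held 2 or more. A match is a description of letters, not a bound site.

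The 4 genes were found together far more often than their separate frequencies give, and 2 pairs led in that ratio. Co-detecting cells made up 2.71% ± 0.333 of the cells of a section (SD, n = 7 sections), from 2.28% in anterior replicate 1 to 3.18% in intermediate replicate 2. Of them, 6554 held exactly 2 of the genes, 2701 held 3 and 1112 held all 4. Co-detecting cells had a median of 277 transcripts, against 341 in all other cells. These medians pool all types of cell, and depth within a type was not compared.

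Cells with both Acta2 and Pln were 18.5 ± 4.90 times as frequent as independent detection within a section would give, ranging from 13.5 in posterior replicate 4 to 26.9 in posterior replicate 3. Carmn and Ano1 followed at 16.5 ± 1.89 times (14.8 to 19.4). The other 4 pairs lay lower, at 10.0 ± 1.75 for Pln and Carmn, 8.32 ± 0.681 for Acta2 and Carmn, 8.28 ± 1.01 for Acta2 and Ano1, and 8.28 ± 1.12 for Pln and Ano1 (SD, n = 7). The ranges of the leading pairs overlapped each other, and neither overlapped those of the 4 lower pairs, of which the highest single value was 12.3. Thinning every cell to 100 transcripts, which left out 34067 shallower cells, kept both pairs in front, at 38.0 ± 6.81 for Acta2 and Pln and 25.9 ± 2.27 for Carmn and Ano1, with the means of the other 4 at 14.2 to 23.8. After thinning, the sections of Pln with Carmn reached 27.5 and overlapped those of Carmn with Ano1, which began at 23.2. Cells of a section share its tissue makeup, so these ratios describe the sections and carry no test.

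**Figure D1:**
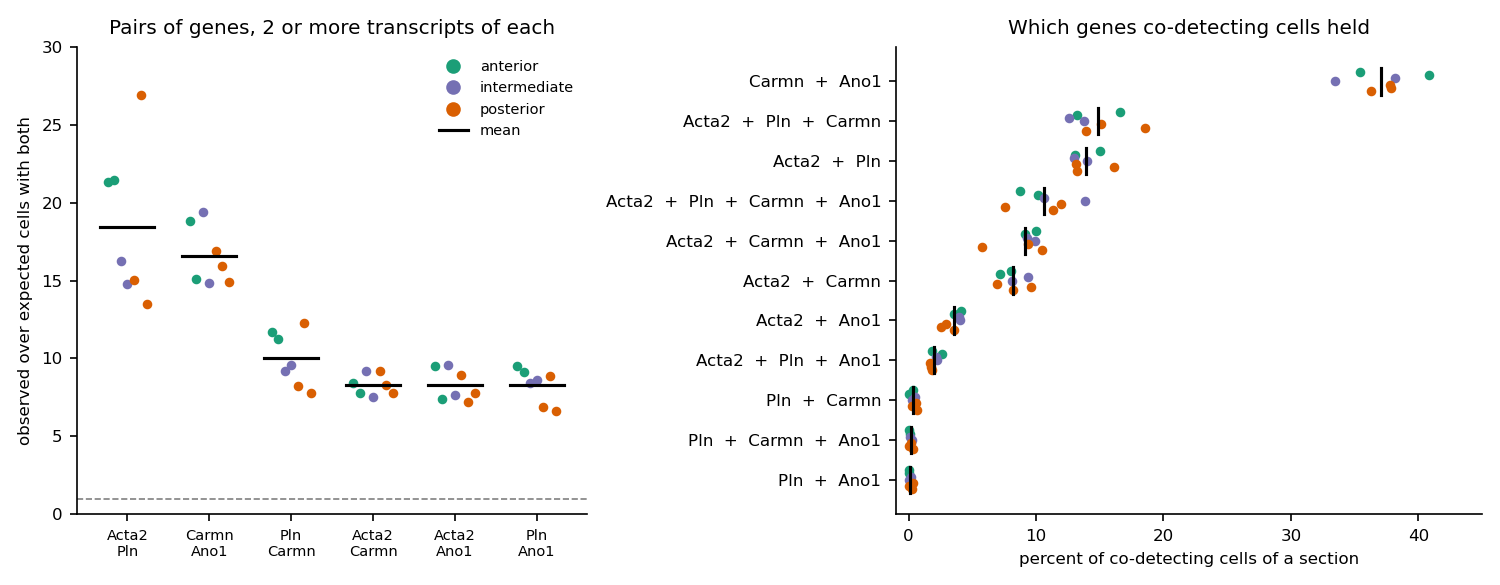
Left, the number of cells with 2 or more transcripts of both genes over the number expected if the genes were independent within a section, for each pair (dashed line, 1). Right, the percent of co-detecting cells of a section that held each combination of genes at 2 or more transcripts. Points are the 7 sections, coloured by position, and black lines are means. Acta2 with Pln (mean 18.5) and Carmn with Ano1 (mean 16.5) lead on the left, and Carmn with Ano1 alone (mean 37.1%) leads on the right.

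The combinations were uneven. Carmn and Ano1 without the other genes was the most frequent, in 37.1% ± 2.34 of co-detecting cells. Acta2, Pln and Carmn together followed at 14.8% ± 2.10, Acta2 and Pln alone at 13.9% ± 1.22, and all 4 genes at 10.6% ± 2.09. Pln was seldom without Acta2 in these cells: of 4364 co-detecting cells with Pln, 68 lacked Acta2 at this threshold (1.56%), and Pln with Ano1 alone was found in 13 cells of all sections. Ano1 without Carmn was commoner, in 587 of 6502 co-detecting cells with Ano1 (9.03%).

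Co-detecting cells took up 62.7% ± 2.08 of all Acta2 transcripts, 60.2% ± 11.4 of Pln, 42.1% ± 2.42 of Carmn and 57.2% ± 2.87 of Ano1 (SD, n = 7). The Pln share was the most variable. Of all cells with 2 or more Pln transcripts, 63.7% ± 13.0 also held Acta2, whereas 65.4% ± 2.35 of cells with Ano1 also held Carmn.

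Cells that held 1 of the genes alone differed by gene. Pln alone was found in 2584 cells, of which 84.2% ± 3.13 were neuron-like. Ano1 alone was found in 2570 cells, 29.7% ± 7.47 of them neuron-like, 18.2% ± 4.35 endothelial-like, 15.5% ± 3.81 astrocyte-like and 13.9% ± 1.56 mural-like. Acta2 alone was found in 6999 cells, 24.1% ± 2.34 of them neuron-like and 22.9% ± 2.80 ependymal-like. Carmn alone was found in 6956 cells, 21.2% ± 2.96 of them neuron-like and 18.8% ± 2.86 mural-like. Neuron-like cells were 49.3% of all cells.

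To see which cells these were, cells were clustered on the other 293 genes, without the 4 members, and clusters were named from marker lists. Any vascular sub-cluster held 89.1% ± 2.29 of co-detecting cells. The mural-like clusters, led among vascular cells by the chondroitin sulphate proteoglycan Cspg4 with Gucy1a1, a subunit of the nitric oxide receptor, held 34.1% ± 1.78 and an unnamed vascular cluster with the highest Acta2 level held 27.4% ± 1.31. The mural-like share was 19.6% ± 1.43 at a Leiden resolution of 2.0 and 20.7% ± 1.42 when 1 transcript of each gene was enough. Fibroblast-like cells held 10.2% ± 1.72, endothelial-like cells 7.97% ± 1.22 and neuron-like cells 5.11% ± 1.02. Seen from the groups, 68.6% ± 2.999 of cells of the Acta2-high vascular cluster co-detected the genes, 60.3% ± 4.23 of mural-like and 12.7% ± 1.89 of fibroblast-like cells. The share was 0.277% ± 0.0485 in neuron-like cells and 0.183% ± 0.0325 in oligodendrocyte-like cells, which should lack Acta2, Pln and Ano1. Carmn stood at 6.36 ± 1.02 per 10000 transcripts in oligodendrocyte-like and 2.13 ± 0.214 in neuron-like cells, so the former give no floor for Carmn.

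The cells with the highest Carmn and Ano1 levels thus were led by mural markers among vascular cells. Those with the highest Acta2 and Pln levels carried endothelial, fibroblast and mural ones, and both groups were mixed. The 5862 mural-like cells also carried endothelial transcripts: against all non-vascular cells their leading genes included Cldn5 and Emcn beside Gjc1 and Cspg4, and Cldn5 (a tight junction protein of endothelium) stood at 2.47 and 2.86 transcripts per cell in the 2 mural-like clusters. The 4143 cells of the Acta2-high vascular cluster were led by Sncg, Ccn2 and Prph among vascular cells, and by Sox17, Aldh1a2, Cldn5 and Dcn against non-vascular cells. With 8.33 Cldn5 and 6.79 Dcn transcripts per cell they held markers of endothelium and of fibroblasts side by side and received no name. They also held 1.87 transcripts per cell of the mural marker Cspg4. The mural-like clusters had 4.36 and 4.76 of Cspg4, and the fibroblast-like clusters 0.177 to 0.467. Dcn stood at 1.67 and 0.746 in the mural-like clusters. How far transcripts of adjoining cells entered these segmented cells was not tested.

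Acta2 averaged 12.9 and 15.1 transcripts per cell in the anterior sections of the Acta2-high vascular cluster, 13.9 and 15.3 in the intermediate and 15.6, 16.5 and 15.2 in the posterior sections. Its mean there was 14.9 ± 1.18, against 2.19 ± 0.379 in mural-like and 1.94 ± 0.279 in fibroblast-like cells. Every section of the cluster lay above every section of those groups, while the ranges of mural-like and fibroblast-like cells overlapped. This cluster, 1.08% ± 0.151 of cells, took 39.9% ± 2.68 of Acta2 transcripts. Since the cluster was singled out for its Acta2 level, these values carry no test.

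Pln followed Acta2 in vascular cells. It averaged 4.38 ± 0.631 transcripts per cell in the Acta2-high cluster (3.56 to 5.47 over sections), 0.382 ± 0.0864 in mural-like and 0.371 ± 0.0475 in fibroblast-like cells. The Acta2-high cluster was alone in passing 1 Pln transcript per cell among vascular sub-clusters. The ratio of Pln to Acta2 transcripts was 0.293 ± 0.0244 there, 0.174 ± 0.0165 in mural-like and 0.193 ± 0.0201 in fibroblast-like cells.

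Ano1 and Carmn had their highest levels in mural-like cells. Ano1 averaged 2.54 and 2.81 transcripts per cell in the anterior sections, 2.63 and 2.83 in the intermediate and 2.85, 2.59 and 3.24 in the posterior sections, a mean of 2.78 ± 0.234. It averaged 1.01 ± 0.170 in the Acta2-high cluster and 0.173 ± 0.0328 in fibroblast-like cells, with no overlap between any of these 3 groups. Carmn averaged 3.71 ± 0.337 in mural-like, 2.68 ± 0.325 in Acta2-high and 0.863 ± 0.129 in fibroblast-like cells. Its lowest mural-like section, at 3.21, lay just above the highest section of the Acta2-high cluster, at 3.16, so these groups were close. Mural-like cells, 1.53% ± 0.147 of all cells, took 35.6% ± 1.13 of Ano1 and 22.8% ± 1.64 of Carmn transcripts, but 8.28% ± 1.24 of Acta2 and 4.93% ± 0.642 of Pln.

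**Figure D2:**
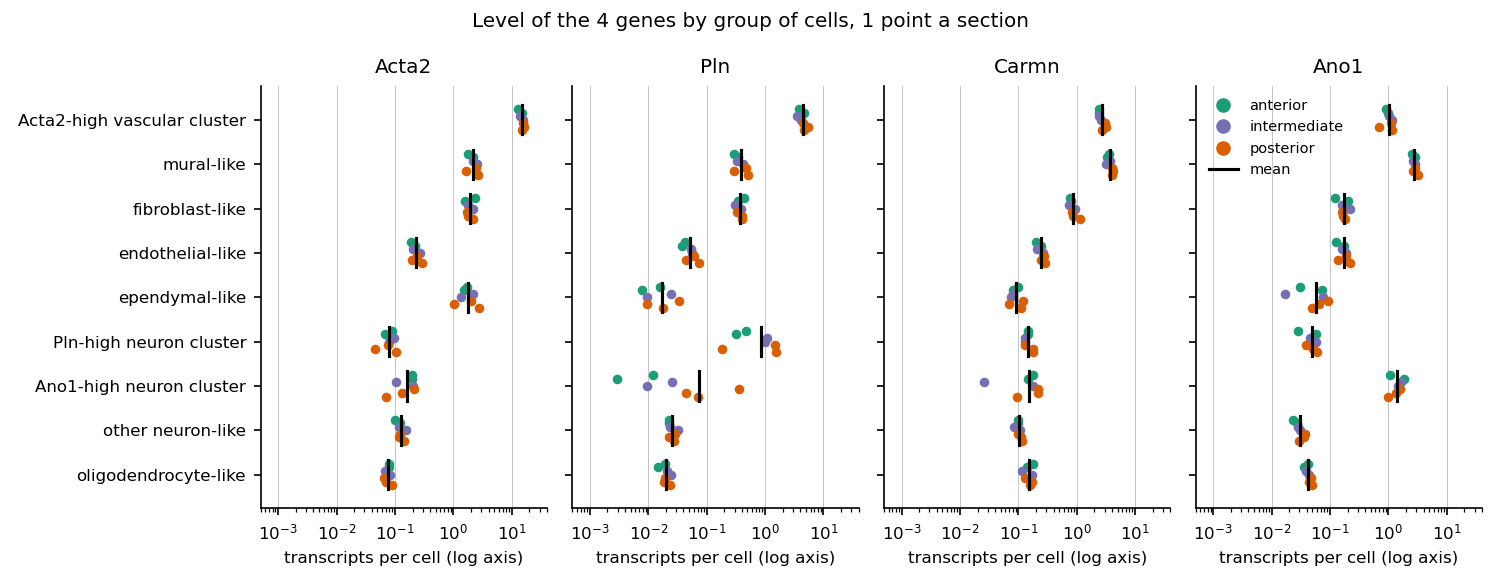
Transcripts per cell (log axis) of each gene in 9 groups of cells. Each point is 1 of the 7 sections, coloured by position, and black lines are means. Acta2 and Pln peak in the Acta2-high vascular cluster (14.9 and 4.38), Carmn and Ano1 in mural-like cells (3.71 and 2.78), and 2 neuron clusters stand out for Pln (0.855) and Ano1 (1.42).

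Acta2 was also high in ependymal-like cells, the ciliated lining of the ventricles, which were led by Spag16, Trp73 and Cd24a. It averaged 1.79 ± 0.580 transcripts per cell (1.02 in posterior replicate 3 to 2.77 in posterior replicate 4), with 52.2% ± 7.51 of 5097 cells holding at least 1, against 6.24% ± 0.714 of oligodendrocyte-like cells. After thinning to 100 transcripts the shares were 43.0% ± 6.64 and 2.91% ± 0.259. Pln averaged 0.0169 ± 0.00943 transcripts per cell in ependymal-like and 0.0201 ± 0.00317 in oligodendrocyte-like cells, and 0.895 ± 0.455 and 0.844 ± 0.135 per 10000 transcripts. The ranges over sections overlapped on both scales. The ratio of Pln to Acta2 was 0.00931 ± 0.00393, far below the 0.293 of the Acta2-high vascular cluster, with no overlap between sections. Median depth was 175 transcripts in ependymal-like and 197 in oligodendrocyte-like cells.

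Across the 57 clusters, likeness to each member was measured over their mean levels. By Pearson correlation of log2(mean transcripts per cell + 0.01), Acta2 was most like the collagen-binding proteoglycan Dcn (r = 0.84), Aldh1a2 (0.81), Igf2 (0.81), Cyp1b1 (0.80) and Col1a1 (0.77). Pln was most like the secreted phosphoprotein Spp1 (0.77), then Dcn (0.66), Col1a1 (0.64), Serpinf1 (0.63) and Igf2 (0.61). Carmn was most like Cspg4 (0.79), Igf2 (0.78), Dcn (0.78), Aldh1a2 (0.71) and Cyp1b1 (0.71). Ano1 was most like Cspg4 (0.76), the gap junction gene Gjc1 (0.70), the proton-sensing receptor Gpr4 (0.69), Cobll1 (0.68) and Igf2 (0.68). Among the members, Acta2 with Carmn (0.85) and Carmn with Ano1 (0.84) were closest and Pln with Ano1 (0.67) least close. Clusters share sections and neighbouring cells, so the correlations are descriptions only.

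**Figure D3:**
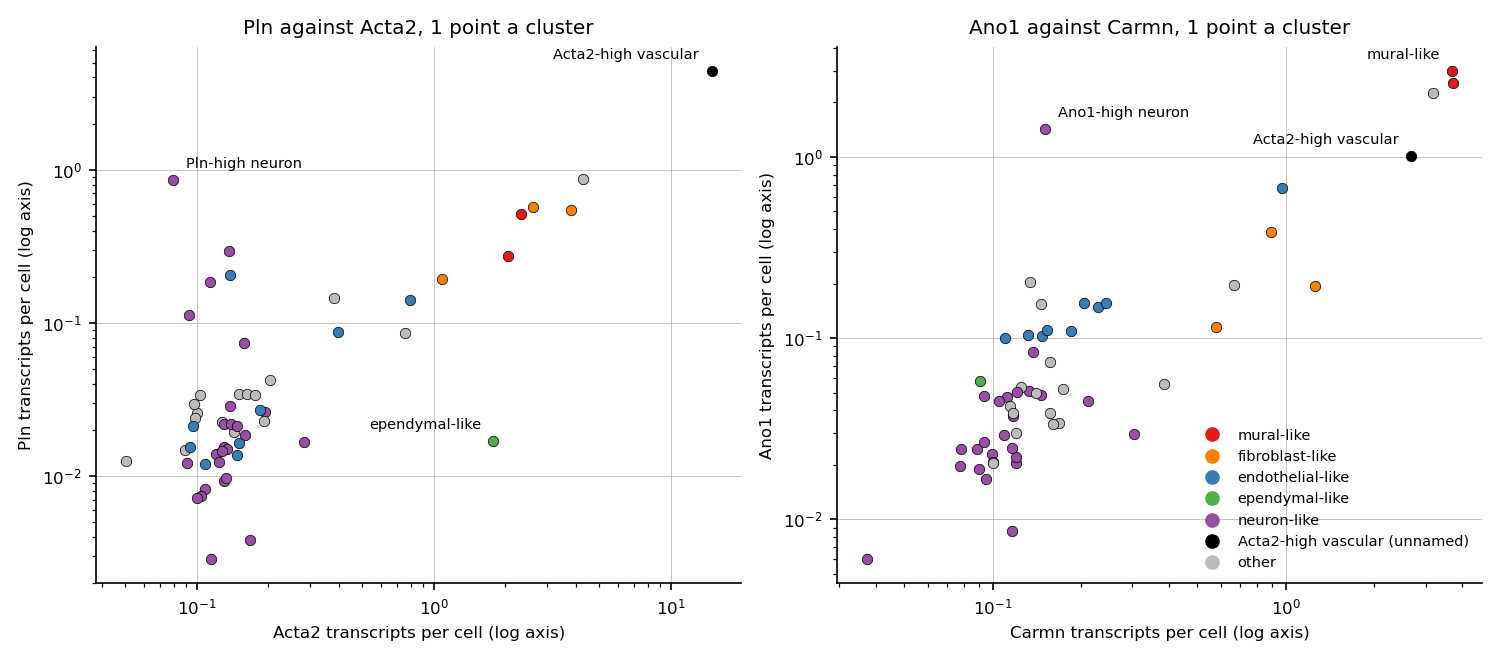
Mean transcripts per cell of Pln against Acta2 (left) and of Ano1 against Carmn (right), both on log axes, with 1 point for each of 57 clusters formed without these genes. Vascular clusters rise together towards the upper right. The Pln-high and Ano1-high neuron clusters lie above the other neuron-like clusters, and the ependymal-like cluster lies far to the right at a low Pln level (1.79 Acta2 and 0.0169 Pln transcripts per cell).

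The uneven combinations led to a comparison of cells with Acta2 and Pln but not Ano1 (2975 cells, called Acta2-Pln cells) with cells with Carmn and Ano1 but not Pln (4787 cells, called Carmn-Ano1 cells), within each section. Fibroblast and endothelial transcripts were higher and most genes of the mural list lower in Acta2-Pln cells. Dcn averaged 8.31 ± 0.489 transcripts per cell in Acta2-Pln cells and 1.67 ± 0.290 in Carmn-Ano1 cells. The log2 difference was 3.30 ± 0.12 (SE, edgeR's quasi-likelihood test with the section as a block, adjusted p = 9.01e-11), higher in 7 of 7 sections. The collagen gene Col1a1 (log2 difference 3.69 ± 0.14), the endothelial adhesion gene Pecam1 (1.97 ± 0.06) and Cldn5 (1.82 ± 0.07) were higher in 7 of 7 sections too.

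Of 289 other genes tested, 222 differed (76.8%), 116 higher and 106 lower, so a call by itself was the common outcome. Of the 8 other mural genes, 7 differed, 2 higher and 5 lower, with a median log2 difference of -0.27, against 0.04 over all genes. Cspg4 averaged 1.77 ± 0.255 transcripts per cell in Acta2-Pln cells and 4.97 ± 0.339 in Carmn-Ano1 cells (log2 difference -0.53 ± 0.10, adjusted p = 0.000376 by edgeR). Lower as well were the formin Fhod3 (-0.58), Arhgap6 (-0.46), the syntrophin Sntb1 (-0.39) and Gucy1a1 (-0.15), and per 10000 transcripts each was lower in 7 of 7 sections. Gucy1a1 was not called at a threshold of 3 transcripts (-0.02, adjusted p = 0.673 by edgeR). Fhod3 did not mark mural-like cells here, with 25.2 per 10000 transcripts in them and 45.7 in whole sections (anterior means). Across clusters Fhod3 correlated negatively with all 4 members (r from -0.46 to -0.33), and Gucy1a1 and Pip5k1b lay near no correlation. Cspg4, Nr2f2, Arhgap6, Plekha2 and Sntb1 correlated positively with each member. The adaptor Plekha2 was higher (0.80), and so was the nuclear receptor Nr2f2 (0.70). Per 10000 transcripts Plekha2 stood at 44.2 ± 2.70 and 38.6 ± 2.43, higher in 7 of 7 sections. Nr2f2 stood at 144 ± 13.0 and 134 ± 5.82 and was higher in 4 of 7 sections. Per cell both means were lower in Acta2-Pln cells, at 1.14 and 1.29 for Plekha2 and 3.72 and 4.48 for Nr2f2, so their direction depended on scaling. The lipid kinase Pip5k1b had a log2 difference of 0.04 (adjusted p = 0.629 by edgeR). Per 10000 transcripts, however, it stood at 29.9 ± 4.02 and 43.8 ± 2.17 and was lower in 7 of 7 sections.

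Scaling by library size moved the median of all genes by -0.60 (log2) and the calls to 63 higher and 179 lower, and Nr2f2 was then not called (0.10, adjusted p = 0.158 by edgeR). Makeup differed along with the genes: 60.3% ± 2.54 of Acta2-Pln cells and 2.84% ± 0.713 of Carmn-Ano1 cells lay in the Acta2-high vascular cluster, 2.82% ± 0.893 and 62.9% ± 1.44 in mural-like clusters, and 18.6% ± 2.66 and 2.14% ± 0.725 in fibroblast-like clusters. Median depth averaged 229 ± 13.8 transcripts in Acta2-Pln cells and 306 ± 14.6 in Carmn-Ano1 cells. The part of makeup and depth in the differences was not tested.

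All 4 genes were higher in fibroblast-like than in neuron-like cells. For Pln the order turned once cells with other vascular transcripts were set aside, a filter that itself largely set the turn. Per 10000 transcripts, with 2 neuron clusters set aside as well, the order did not turn and the difference did not pass the test. In fibroblast-like cells Pln had 0.438 and 0.344 transcripts per cell in the anterior sections, 0.300 and 0.382 in the intermediate and 0.333, 0.401 and 0.400 in the posterior sections. In neuron-like cells the same sections had 0.0438 and 0.0373, 0.0939 and 0.0813, and 0.134, 0.0286 and 0.120. Every fibroblast-like value lay above every neuron-like one. The difference was 0.294 ± 0.0746 (SD of the paired difference, n = 7, adjusted p = 0.0156 by the exact two-sided sign-flip permutation test, the smallest that 7 sections allow).

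Ano1 ranged from 0.121 to 0.221 transcripts per cell in fibroblast-like and from 0.0268 to 0.0519 in neuron-like sections, a difference of 0.135 ± 0.0265. Acta2 averaged 1.94 ± 0.279 in fibroblast-like and 0.123 ± 0.0176 in neuron-like cells, a difference of 1.81 ± 0.276. Carmn averaged 0.863 ± 0.129 in fibroblast-like and 0.105 ± 0.0106 in neuron-like cells, a difference of 0.759 ± 0.120. These 3 were higher in 7 of 7 sections, each with an adjusted p of 0.0156 by the exact permutation test.

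A stricter set kept only cells with none of the other 3 genes and none of Cldn5, Pecam1 and Cspg4. Pln then averaged 0.0104 ± 0.00680 transcripts per cell in 2310 fibroblast-like and 0.0663 ± 0.0361 in 117627 neuron-like cells. It was lower in fibroblast-like cells in 7 of 7 sections (difference -0.0559 ± 0.0319, adjusted p = 0.0208, exact permutation test). The filter removed every co-detecting cell. Before it, 7.63% ± 1.10 of fibroblast-like cells held 2 or more Pln transcripts. Of cells that held Pln alone at this threshold, 7 were fibroblast-like and 2204 neuron-like. The filter itself thus largely set this turn, and the test does not measure Pln in unfiltered fibroblast-like cells. Oligodendrocyte-like cells filtered in the same way, which should lack Pln, had 0.0152 ± 0.00260. The level in the fibroblast-like cells that remained was thus not above background. Fibroblast-like cells of this set were shallower, with a median of 69.0 to 175.5 transcripts over sections, against 352 to 480 in neuron-like cells. Per 10000 transcripts Pln averaged 0.666 ± 0.409 in fibroblast-like and 1.44 ± 0.720 in neuron-like cells, and was lower in fibroblast-like cells in 6 of 7 sections (difference -0.77 ± 0.527, adjusted p = 0.0312, exact permutation test). Setting aside also the 2 neuron clusters described next left Pln at 0.0205 ± 0.00308 transcripts per cell in neuron-like cells and the difference at -0.0102 ± 0.00655 (adjusted p = 0.0156, exact permutation test). Per 10000 transcripts that last comparison had 0.666 ± 0.409 in fibroblast-like and 0.447 ± 0.0564 in neuron-like cells and did not pass the test (difference 0.22 ± 0.428, higher in 5 of 7 sections, adjusted p = 0.234, exact permutation test).

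The other genes were higher in fibroblast-like cells of the stricter set too, by smaller differences per cell. Ano1 averaged 0.0618 ± 0.0379 in fibroblast-like and 0.0221 ± 0.00784 in neuron-like cells (difference 0.0397 ± 0.0316, higher in 6 of 7 sections, adjusted p = 0.0312, exact permutation test). Oligodendrocyte-like cells filtered alike had 0.0275 ± 0.00403 Ano1 transcripts per cell. Carmn averaged 0.466 ± 0.127 in fibroblast-like and 0.0831 ± 0.0109 in neuron-like cells, and Acta2 0.245 ± 0.0462 and 0.0957 ± 0.0164, both higher in 7 of 7 sections (adjusted p = 0.0208, exact permutation test). By its construction the stricter set also leaves out any cell that expresses several of the genes.

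**Figure D4:**
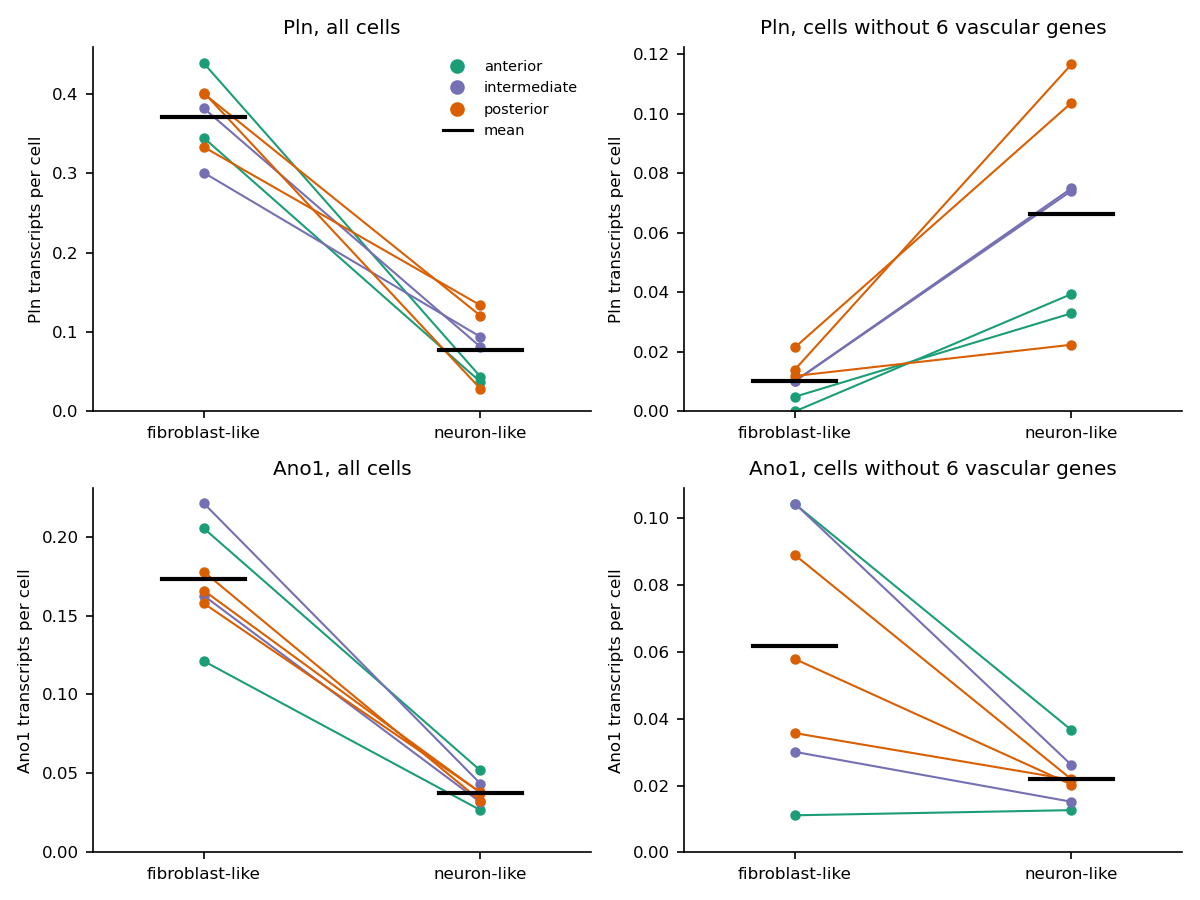
Pln (top) and Ano1 (bottom) transcripts per cell in fibroblast-like and neuron-like cells, with lines joining the values of a section. Left, all cells. Right, cells with none of the other 3 genes, Cldn5, Pecam1 or Cspg4. Black bars are means over 7 sections. Pln is higher in fibroblast-like cells on the left (0.371 and 0.0770) and lower in them on the right (0.0104 and 0.0663).

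Among neuron-like clusters 1 had the highest Pln level and another the highest Ano1 level, and both were picked here for these levels. Phospholamban is known from inhibitory neurons of the mouse thalamic reticular nucleus, besides muscle. The Pln-high cluster (10558 cells) was led by Fign, the calcium buffer Pvalb, the receptor-modifying Ramp3, Kcnmb2 and Sst, with the GABA-synthesising enzyme Gad2 among its 10 leading genes. It held 1729 of 2379 neuron-like cells with 2 or more Pln transcripts (72.7%). Pln there had 0.465 and 0.313 transcripts per cell in the anterior sections, 1.06 and 0.978 in the intermediate and 1.45, 0.185 and 1.53 in the posterior sections. Posterior replicate 3 was the lowest of all and the other posterior sections were the highest.

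The mean, 0.855 ± 0.542, compared with 0.0256 ± 0.00372 in all neuron-like cells outside both clusters. In its cells of the stricter set Pln averaged between 0.161 and 1.45 over sections, close to the levels in all its cells. Acta2, in cells of the cluster with no Pln, Carmn, Ano1, Cldn5, Pecam1 or Cspg4, was at 0.0575 ± 0.0182 transcripts per cell, beside 0.0593 ± 0.00771 in oligodendrocyte-like cells filtered in the same way. With every cell thinned to 100 transcripts, 12.9% ± 7.12 of its cells held Pln, against 0.491% ± 0.0473 of other neuron-like and 0.831% ± 0.0872 of oligodendrocyte-like cells. Unthinned, the shares were 25.7% ± 11.2, 1.95% ± 0.289 and 1.75% ± 0.217. The cluster took from 3.35% to 35.8% of the Pln transcripts of a section.

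The next highest Pln levels among neuron-like clusters were found in 3 others. The first (927 cells, led by Spp1, Rab37 and Adarb2) had 0.294 ± 0.230 transcripts per cell, the next (2027 cells, led by Myl4, Nxph3 and Fezf2) 0.185 ± 0.0313 and the last (12730 cells, led by Trbc2, Rprm and Arhgap25) 0.112 ± 0.0223. One endothelial-like cluster of 2566 cells, whose leading genes among vascular cells were the Pvalb, Fign and Gad2 of the Pln-high neurons, had 0.204 ± 0.143 Pln and 0.139 ± 0.0509 Acta2 transcripts per cell. Its lowest section was at 0.0451 and its highest at 0.412. What neighbouring cells contributed there was not tested.

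The Ano1-high cluster was small (759 cells, 14 to 343 a section) and was led by the cation channel Trpc4, Necab2 and Shisa6, with Gad1 among its leading genes. Ano1 there had 1.07 and 1.85 transcripts per cell in the anterior sections, 1.64 and 1.48 in the intermediate and 1.57, 1.35 and 0.977 in the posterior sections, a mean of 1.42 ± 0.312. All other neuron-like cells outside both clusters averaged 0.0304 ± 0.00492, below the 0.0427 of oligodendrocyte-like cells. Of its cells 62.9% ± 10.8 held Ano1, and 31.0% ± 7.26 after thinning to 100 transcripts, against 1.95% ± 0.247 of thinned oligodendrocyte-like cells. It held 312 of 1103 neuron-like cells with 2 or more Ano1 transcripts (28.3%). Carmn, the partner of Ano1 in mural-like cells, was at 0.151 transcripts per cell, near the 0.152 of oligodendrocyte-like cells. Those cells give no floor for Carmn, so this does not show that it was absent.

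**Figure D5:**
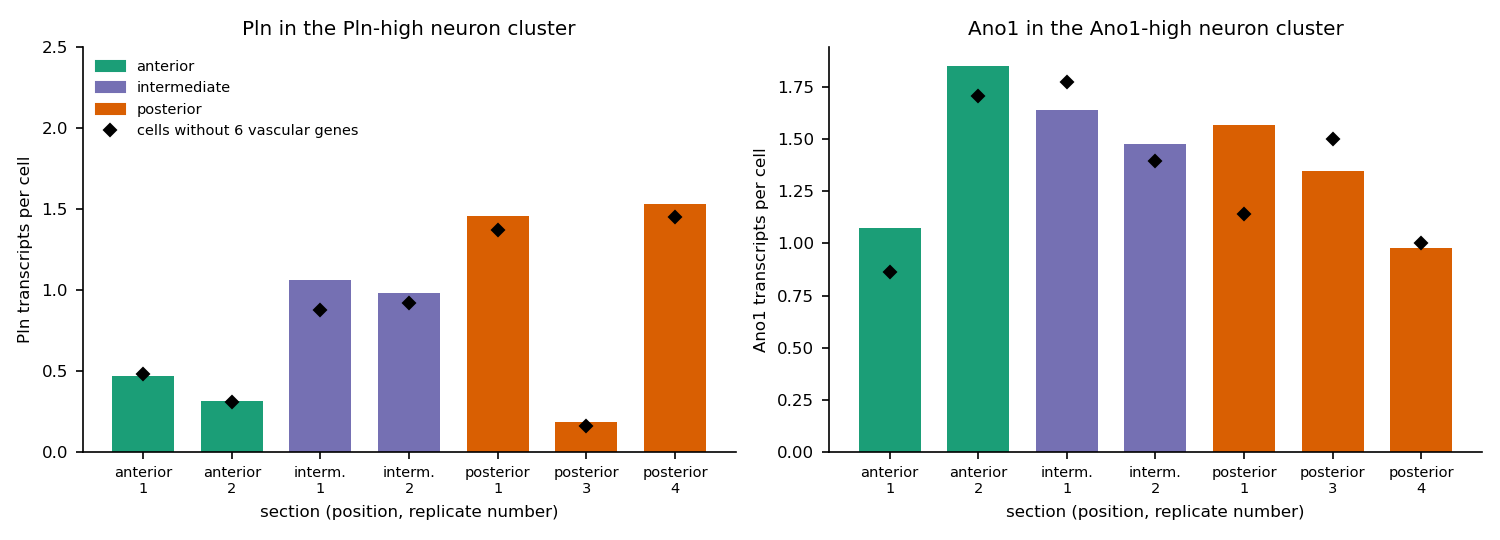
Left, Pln transcripts per cell in the Pln-high neuron cluster. Right, Ano1 transcripts per cell in the Ano1-high neuron cluster. Bars are the 7 sections in order of position, and diamonds are the same value in cells with none of the other 3 genes, Cldn5, Pecam1 or Cspg4. Pln ranges from 0.185 in posterior replicate 3 to 1.53 in posterior replicate 4, and Ano1 from 0.977 to 1.85.

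Within the Pln-high cluster, cells with 2 or more Pln transcripts were set against the 7697 cells with none, section by section. Pln-positive cells held more Rab37, a vesicle-traffic GTPase (log2 difference 2.47 ± 0.12 SE, adjusted p = 3.07e-10, edgeR's quasi-likelihood test with the section as a block). It stood at 56.9 ± 12.1 per 10000 transcripts in Pln-positive and 14.2 ± 1.22 in Pln-negative cells. They also held more of the surface protein Cd24a (2.06), Strip2 (1.88), Gm2115 (1.87), the matrix linker Hapln1 (1.85), Ramp3 (1.64), Fgd5 (1.52), Pdzd2 (1.51), the fast calcium sensor Syt2 (1.45) and Nxph3 (1.39). Calb2, the calcium buffer calretinin, was lower at 3.41 ± 1.88 per 10000 in Pln-positive cells, against 25.3 ± 7.22 in Pln-negative cells (log2 difference -2.62 ± 0.20, adjusted p = 2.75e-08 by edgeR). Lower too were Zcchc12 (-2.50), the mu opioid receptor Oprm1 (-2.23), Syt5 (-1.91) and the serotonin receptor Htr2c (-1.89). The rule that named these 15 genes required the same direction in 7 of 7 sections, so that agreement is not a result.

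Of 287 genes other than Pln, 180 differed (62.7%), 85 higher and 95 lower. The other 3 members did not pass the test. Acta2 stood at 2.06 ± 0.518 per 10000 transcripts in Pln-positive and 2.11 ± 0.532 in Pln-negative cells (log2 difference 0.40, adjusted p = 0.0549), Carmn at 2.66 ± 1.05 and 4.49 ± 0.791 (-0.29, adjusted p = 0.116) and Ano1 at 0.871 ± 0.479 and 1.52 ± 0.432 (-0.27, adjusted p = 0.272, all by edgeR). Pln-positive cells were deeper, with a median of 499 transcripts against 294, and among cells of 300 to 600 transcripts 138 genes differed. Scaling by library size moved the median of all genes by -0.47 (log2), turned Acta2 to -0.07 and gave 48 higher and 174 lower calls. Carmn (-0.76, adjusted p = 0.000576) and Ano1 (-0.74, adjusted p = 0.00440) were then called lower by edgeR. With no section block Acta2 was called higher (0.47, adjusted p = 0.0480 by edgeR), and over fits that left out 1 section its adjusted p ran from 0.0172 to 0.146.

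Position was compared because it is the one design factor the labels give, beside replicate and slide numbers. Posterior replicates 3 and 4 lay on slide 2 and all other sections on slide 1, so position and slide are partly confounded. No member passed the test of posterior against anterior sections in any group of cells. In whole sections Pln stood at 3.79, 2.74 and 3.57 per 10000 transcripts in the posterior and at 2.73 and 2.40 in the anterior sections. The groups did not overlap, with 2.74 in the lowest posterior and 2.73 in the highest anterior section, and the log2 difference was 0.37 ± 0.15 (adjusted p = 0.449 by edgeR). Acta2 (0.01 ± 0.10), Carmn (0.03 ± 0.10) and Ano1 (-0.05 ± 0.12) had groups that overlapped. By edgeR 0 of 297 genes differed (0%), with 33 at an unadjusted p under 0.05, and DESeq2 called 14.

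In neuron-like cells Pln stood at 2.61, 0.602 and 2.22 per 10000 transcripts in the posterior and at 1.05 and 0.730 in the anterior sections. Posterior replicate 3 lay below both anterior sections and the other posterior sections above them. The log2 difference was 0.995 ± 0.574 (adjusted p = 0.556 by edgeR), and without posterior replicate 3 it was 1.41 (adjusted p = 0.0450). By edgeR 1 of 297 genes differed in neuron-like cells (0.337%), Ppp1r1b, which was lower (-0.50, adjusted p = 0.0490) and is named because it was the one call. DESeq2 called 17.

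In mural-like cells 0 of 295 genes differed (0%) by edgeR, with 15 at an unadjusted p under 0.05, and in fibroblast-like cells 0 of 296 (0%), with 19. DESeq2 called 0 in both. Mural-like Pln had a log2 difference of 0.26 ± 0.20 (adjusted p = 0.928), Acta2 0.02 ± 0.15, Carmn 0.04 ± 0.12 and Ano1 -0.05 ± 0.07. Fibroblast-like Pln had -0.22 ± 0.21 (adjusted p = 0.904) and Ano1 -0.10 ± 0.19. None of the 8 other mural genes passed the test in any of the 4 groups.

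The replicate block, fitted because same-numbered sections deviated together (as some of different number also did), moved these calls. With it 34 genes differed in whole sections, 8 in mural-like, 45 in neuron-like and 4 in fibroblast-like cells. Pln then had a log2 difference of 0.51 in whole sections and 1.30 in neuron-like cells, and Acta2 had 0.26 in mural-like cells. That fit has 1 residual degree of freedom. Posterior replicates 3 and 4 have no partner and are fitted exactly, so the difference from the anterior sections rests on posterior replicate 1 alone. Posterior replicate 3, which had the lowest Pln level of the posterior sections, plays no part in it. With slide as a term the difference also rests on posterior replicate 1, since the other posterior sections are all of slide 2. Pln then had 0.54 in whole sections and 1.52 in neuron-like cells.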

How the data were processed

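Counts per gene and cell were used as the authors deposited them, as whole numbers of transcripts per segmented cell with no normalization, for 297 genes in 384076 cells of 7 sections. The submitters' processing notes name Seurat without a version, and the sources say nothing of how cells were segmented or filtered. The 8 other columns of the deposited cell table were not used.

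The 4 genes, the marker lists, the rules and the comparisons were chosen with earlier results of these data known. Cells with at least 10 transcripts (382707) were clustered with scanpy 1.11.5 on log-normalized counts of the 293 other genes (30 principal components, 15 neighbours, Leiden resolution 1.0). Vascular clusters were clustered again, a step chosen after the clusters were seen. A cluster was named where 3 of its 10 leading genes were in a marker list. No doublet caller was run.

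Counts were summed per section and group of cells and tested with edgeR 4.0.16 (quasi-likelihood, TMM, Benjamini-Hochberg over all genes tested, R 4.3.3), with DESeq2 1.42.0 as an alternative. Fibroblast-like and neuron-like levels were compared by an exact sign-flip permutation test over 7 sections, adjusted over the 4 genes. Named genes were the 4 members, the 8 other mural genes, the 5 genes most like each member and markers of cell types. For Pln-positive cells a rule added after seeing the data named the 10 highest and 5 lowest log2 differences among calls with at least 10 transcripts per 10000 in either group that moved the same way in 7 of 7 sections. In simulated counts 200 of the 297 genes were changed and sections were drawn independently. For whole sections edgeR recovered 58% of genes changed by 1.25-fold and 92% of those changed by 1.5-fold. For fibroblast-like cells these shares were 8% and 40%. With so many changed genes the adjusted threshold is easier to pass, so these shares do not give the power of the position tests.

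Same-numbered sections deviated together: over 297 genes the correlation of deviations from the group means was 0.835 between anterior and intermediate sections, 0.371 between anterior and posterior replicate 1 and 0.519 between intermediate and posterior replicate 1. With 2 sections in a group the deviations mirror each other, so 0.835 is a single value for replicates 1 and 2. Some sections of different number also deviated together: posterior replicate 3 had 0.389 with intermediate replicate 2 and 0.273 with anterior replicate 2. Blocked values are given beside the position results, though whether replicate number is the shared factor was not tested. Alternatives were library-size scaling, DESeq2, other thresholds, thinning to 100 transcripts, other clusterings, the replicate block, slide, and leaving out each section. Promoter sequences came from RefSeq (GRCm38.p6).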

Additional observations from a re-analysis of the deposited data

Results flagged for a closer look

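Of 47 values examined over 7 sections, 1 held a section far from the rest. Pln in the Ano1-high neuron cluster stood at 0.357 transcripts per cell in posterior replicate 1, where the cluster had 14 cells, and the nearest other section had 0.0698. The gap was 0.811 of the whole range, above Dixon's 95% critical value for 7 samples. Chance flags about 1 in 20 such groups.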

How the results depend on the processing

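For posterior against anterior sections, DESeq2 gave 14 calls in whole sections and 17 in neuron-like cells. Fits with the replicate block or with slide draw the posterior level from posterior replicate 1 alone. The replicate block gave 34 in whole sections, 8 in mural-like, 45 in neuron-like and 4 in fibroblast-like cells. In neuron-like cells library size, slide and clusters on all genes gave 0. Leaving out 1 section gave 0 to 2 calls in whole sections (2 without posterior replicate 4) and 0 to 9 in neuron-like cells (9 without posterior replicate 3).

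Differences of the members near 0 changed sign. With the replicate block Carmn was at -0.0535 and Ano1 at 0.10 in whole sections, Carmn at -0.0866 in mural-like, Ano1 at 0.0576 in neuron-like and Ano1 at 0.14 in fibroblast-like cells. With slide Acta2 was at -0.0233 and Carmn at -0.0296 in whole sections, and with clusters on all genes mural-like Acta2 was at -0.24. Leaving out 1 section gave, in whole sections, -0.0116 to 0.0306 for Acta2, -0.0461 to 0.113 for Carmn and -0.161 to 0.0879 for Ano1. In mural-like cells it gave -0.0683 to 0.181 for Acta2, -0.0924 to 0.191 for Carmn and -0.0843 to 0.00122 for Ano1. It gave -0.56 to 0.14 for neuron-like Ano1, -0.487 to 0.0919 for fibroblast-like Pln and -0.34 to 0.19 for fibroblast-like Ano1.

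Between Acta2-Pln and Carmn-Ano1 cells Pip5k1b was at -0.56 with library size, -0.0538 with DESeq2, -0.0058 at a threshold of 3 and -0.0456 in cells of at least 50 transcripts, and from -0.177 to 0.0735 without 1 section. Acta2 in Pln-positive cells was at -0.0657 with library size. The fibroblast-like minus neuron-like difference of Pln was -0.0559 transcripts per cell in the stricter set and -0.0102 without the 2 neuron clusters as well. Per 10000 transcripts it was -0.77 in the stricter set and turned positive, at 0.22, without the 2 neuron clusters as well (adjusted p = 0.234, exact permutation test). The share of co-detecting cells was 6.07% at a threshold of 1 transcript, 1.86% at 3, 1.24% after thinning and 2.63% to 2.78% without 1 section. Their mural-like share was 20.7% at a threshold of 1, 28.5% after thinning, 32.3% with clusters on all genes, 19.6% at resolution 2.0 and 33.7% to 34.4% without 1 section. The causes were not tested. Comparisons between types of cell were added after seeing the data, except that of fibroblast-like and neuron-like cells.

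Depth, 2 or 3 sections a position and mixed transcripts in segmented cells limit the results.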

Other observations

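An unnamed vascular cluster of 1304 cells held all 4 genes at once, with 4.27 Acta2, 0.871 Pln, 3.18 Carmn and 2.26 Ano1 transcripts per cell (means over 7 sections). It also held 3.23 Cspg4 and 3.06 Dcn transcripts per cell, a mural and a fibroblast marker. One astrocyte-like cluster of 6111 cells, led by Gfap and Cd44, had 0.205 Ano1 transcripts per cell, against 0.0298 to 0.0743 in the other astrocyte-like clusters.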
